A study of Mus musculus with 199 samples.

Results

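Bile acid synthesis and transport genes were followed through liver tissue, small tumours and large tumours of a mouse model of hepatocellular carcinoma on fatty liver disease. The 10 genes, Cyp7a1, Cyp8b1, Cyp27a1, Cyp7b1, Baat, Slc27a5, Slc10a1, Abcb11, Slco1a1 and Slco1b2, were taken by Ensembl identifier from a counts table of 37713 genes, and all 10 were found and passed the filter on low counts. Whole tissue gave 65 of the series' 199 libraries, namely 15 of liver tissue, 25 of small primary tumours and 25 of large primary tumours. All came from male wild-type C57BL/6 mice of an in-house colony, and every title carries DEN ALIOS, the carcinogen diethylnitrosamine with a Western-type diet. The liver tissue libraries are also labelled Normal under treatment, and the protocol speaks of healthy tissue, so whether these mice or only this tissue stood outside the model is not given in the labels. The labels give no age and name no animal for the tissue libraries, so several may share a mouse.

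Bile acids are made from cholesterol in hepatocytes. In the classic route Cyp7a1 adds the first and rate-limiting hydroxyl group and Cyp8b1 adds the one that turns the product towards cholic acid, while the alternative route starts with Cyp27a1 in mitochondria and continues with Cyp7b1. Slc27a5 activates bile acids with coenzyme A and Baat joins them to taurine or glycine. Abcb11, the bile salt export pump, secretes the conjugates across the canalicular membrane, and Slc10a1, a sodium-dependent transporter, takes returning bile acids up from the blood with the help of the organic anion transporters Slco1a1 and Slco1b2. The nuclear receptor FXR (Nr1h4) lowers Cyp7a1 and Cyp8b1 through SHP (Nr0b2) and through the intestinal hormone Fgf15, which acts on hepatocytes through Fgfr4 and Klb, and it raises Abcb11. Cyp7b1 and Slco1a1 are also known for higher levels in male than in female mouse liver.

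RefSeq promoter windows (GRCm38.p6, 250 bases before to 50 after a start) were matched for 6 of the 10 genes, with 7 windows in all, for Cyp8b1, Cyp27a1, Slc10a1, Abcb11, Slco1a1 and Slco1b2. Cyp7a1, Cyp7b1, Baat and Slc27a5 were not matched. The 100 bases before the start are shown for a synthesis enzyme, an uptake transporter and an organic anion transporter, with motif matches in capitals. These 3 genes are the ones whose windows held a match to a motif searched for. They varied together across tumours, as did all 45 pairs of the 10 genes (below). The windows lie at chr9:121916306-121916405 (minus strand) for Cyp8b1, at chr12:80968706-80968805 (minus strand) for the first of the starts of Slc10a1, and at chr6:141629418-141629517 (plus strand) for Slco1b2.
Cyp8b1: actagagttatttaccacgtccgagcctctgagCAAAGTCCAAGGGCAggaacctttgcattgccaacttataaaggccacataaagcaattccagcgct
Slc10a1: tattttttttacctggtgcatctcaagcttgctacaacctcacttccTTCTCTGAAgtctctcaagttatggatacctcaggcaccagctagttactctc
Slco1b2: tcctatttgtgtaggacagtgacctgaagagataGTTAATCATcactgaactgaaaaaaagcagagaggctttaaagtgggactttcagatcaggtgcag

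The capitals in Cyp8b1 join 2 overlapping matches, CAAAGTCCA, the core read by the hepatocyte factor HNF4A, at position -67 from the start, and CAAGGGCA, which fits the LRH-1 (Nr5a2) core CAAGGNCA, at position -60. The HNF4A core was found in 0.479% and the LRH-1 core in 6.68% of 32544 RefSeq promoter windows of this length, searched on both strands. Slc10a1 held the STAT5 motif TTCNNNGAA at position -53 of its first window, a motif present in 8.33% of windows, and its second window held the C/EBP motif TTGCNNAA at -4 and at -75 on the reverse strand (10.8% of windows). Slco1b2 held the HNF1 motif GTTAATNAT at -66 (0.808% of windows) and a STAT5 match at -206. The FXR repeat core GTCANTGAC, found in 0.387% of windows, had no exact match in any of the 7. Cyp27a1, Abcb11 and Slco1a1 held no exact match to any of the 6 motifs. Near matches were not counted, so an FXR element may be missed. The Abcb11 window holds gccattgac, which differs from the FXR core in its second letter. These matches describe letters in the windows and not binding.

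Gene counts per library ran from 12055434 to 21850190 (median 15178619), and levels below are counts per 1000000 gene counts after TMM scaling (CPM). Library codes in the labels have 3 different prefixes, called runs here, and each run held all 3 groups (6, 6 and 3 liver tissue, 10, 5 and 10 small tumour and 5, 10 and 10 large tumour libraries). Reads that HTSeq set aside as not unique were a median 54.6% of entries in liver tissue, 49.6% in small and 47.8% in large tumours, and the part of this difference in the results was not tested. Hepatocyte identity was present in all groups, with a median of 53081 CPM of the albumin gene Alb in liver tissue, 163909 in small and 150159 in large tumours. In bulk tissue, fewer cells of a type and less RNA per cell cannot be told apart. Liver tissue libraries whose numbers fall in the same consecutive 3 (1 to 3, 4 to 6 and so on) were more alike. Their median chi-square per degree of freedom was 15.0 over 15 pairs against 38.7 over the 90 other pairs. Each such set lies within a single run, whereas most of the other pairs join different runs. The part of the run in this difference was not tested. P-values that treat each library as separate may be too small.

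The 4 cytochrome P450 enzymes of synthesis were lower in tumours of both sizes than in liver tissue. Cyp7a1, the first enzyme of the classic route, had 115 to 724 CPM in liver tissue (median 221), 0.348 to 244 CPM in small tumours (median 37.4) and 0 to 340.0 CPM in large tumours (median 3.61). Its level lay below every liver tissue library in 22 of 25 small and 24 of 25 large tumours, and 2 large tumour libraries held at most 3 counts of it. The fitted log2 fold change was -3.20 ± 0.67 (SE) in small and -5.05 ± 0.72 in large tumours (edgeR adjusted p = 2.96e-05 and 7.65e-09). Cyp8b1, the sterol 12-hydroxylase, had 111 to 598 CPM in liver tissue (median 212), 5.08 to 258 CPM in small tumours (median 36.8) and 0.877 to 122 CPM in large tumours (median 9.17). It fell by 2.45 ± 0.51 on the log2 scale in small tumours and by 3.89 ± 0.51 in large tumours, and the groups overlapped in 3 small tumours and 1 large tumour.

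Both enzymes of the alternative route fell as well. Cyp27a1 had 479 to 932 CPM in liver tissue (median 674), 40.1 to 456 CPM in small tumours (median 147) and 25.2 to 642 CPM in large tumours (median 75.8). All 25 small tumours lay under the lowest liver tissue library for Cyp27a1, and 24 of 25 large tumours did. Cyp7b1, which hydroxylates the oxysterols made by Cyp27a1, had 131 to 283 CPM in liver tissue (median 193), 2.80 to 99.4 CPM in small tumours (median 19.0) and 1.89 to 90.5 CPM in large tumours (median 8.82). Cyp7b1 did not overlap between liver tissue and tumours of either size. The log2 fold changes in small and large tumours were -2.35 ± 0.29 and -2.87 ± 0.30 for Cyp27a1 and -2.77 ± 0.41 and -3.88 ± 0.43 for Cyp7b1, all with an edgeR adjusted p under 0.05.

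The conjugation enzymes fell by less on the log2 scale. Baat had 251 to 375 CPM in liver tissue (median 294), 39.3 to 291 CPM in small tumours (median 107) and 51.9 to 185 CPM in large tumours (median 83.3). All large tumours and 23 of 25 small tumours were below liver tissue for Baat. Slc27a5, the bile acid coenzyme A ligase, had 636 to 1493 CPM in liver tissue (median 988), 98.9 to 915 CPM in small tumours (median 394) and 125 to 1027 CPM in large tumours (median 325). It stayed inside the liver tissue range in 4 small tumours and 1 large tumour. The log2 fold changes in small and large tumours were -1.40 ± 0.15 and -1.78 ± 0.15 for Baat and -1.42 ± 0.17 and -1.73 ± 0.17 for Slc27a5.

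Among the transporters, those of uptake had larger fold changes than the export pump. Slc10a1, the sodium-dependent uptake carrier, had 394 to 843 CPM in liver tissue (median 681), 45.4 to 780.4 CPM in small tumours (median 124) and 12.7 to 457 CPM in large tumours (median 56.1). For Slc10a1, 23 of 25 tumours of each size lay below all liver tissue libraries. Slco1b2, an uptake transporter of bile acids, bilirubin and drugs, had 797 to 1271 CPM in liver tissue (median 1049), 15.2 to 724 CPM in small tumours (median 239.5) and 4.04 to 1099 CPM in large tumours (median 87.6). No small tumour and 1 large tumour reached the liver tissue range of Slco1b2. Slco1a1, the male-biased organic anion transporter, had 76.9 to 257 CPM in liver tissue (median 160.0), 0.696 to 169 CPM in small tumours (median 32.05) and 0.235 to 48.0 CPM in large tumours (median 1.82). Every large tumour was below liver tissue for Slco1a1, whereas 5 small tumours overlapped with it. Abcb11, the export pump, had 379.9 to 752 CPM in liver tissue (median 499.5), 122 to 612 CPM in small tumours (median 252) and 88.6 to 471 CPM in large tumours (median 203), with 4 small tumours and 1 large tumour inside the liver tissue range.

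The log2 fold changes in small and large tumours against liver tissue were -2.34 ± 0.32 and -3.13 ± 0.32 for Slc10a1, -2.61 ± 0.45 and -3.56 ± 0.48 for Slco1b2, -1.97 ± 0.50 and -4.10 ± 0.54 for Slco1a1 and -0.997 ± 0.163 and -1.33 ± 0.16 for Abcb11. All 10 genes were thus lower in large tumours by edgeR at an adjusted p under 0.05, where 32.1% of the 14538 tested genes were lower (70.5% changed in either direction), and all 10 were lower in small tumours, where 31.0% of genes were lower (65.8% in either direction). The median log2 fold change of the 10 genes was -3.35 in large and -2.35 in small tumours, beside 0.05 and 0.03 over all tested genes. Both comparisons use the same liver tissue libraries. In 3 of the 10 genes no large tumour overlapped with liver tissue (Cyp7b1, Baat, Slco1a1), which held for 2.21% of all genes, and in 3 no small tumour did (Cyp27a1, Cyp7b1, Slco1b2), which held for 0.523%.

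**Figure D1:**
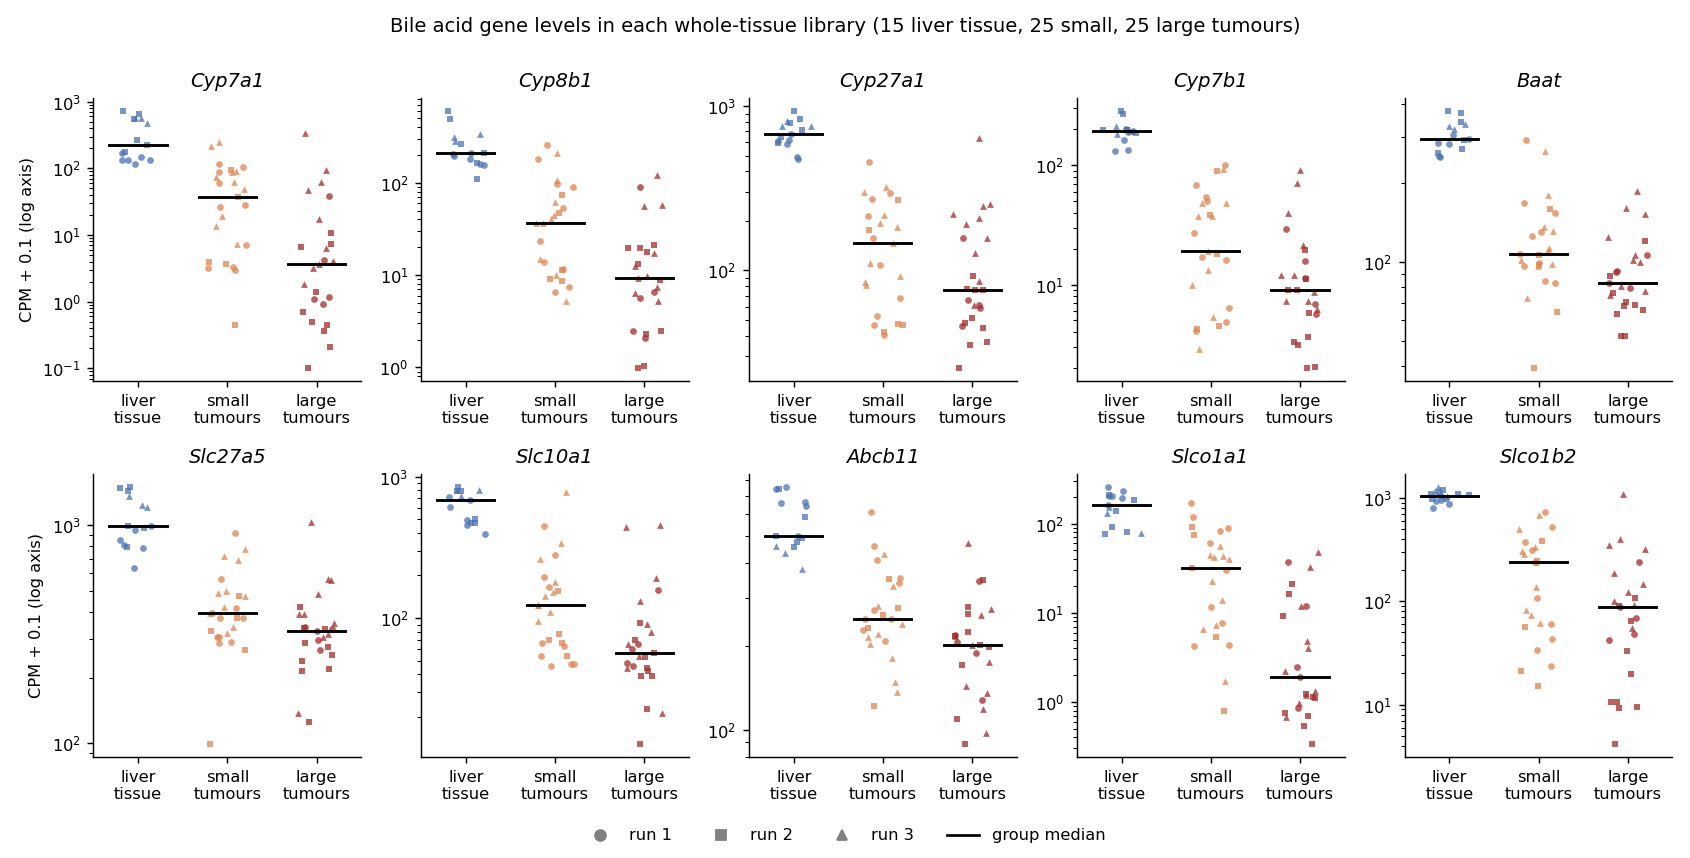
Levels of the 10 genes in each of 65 libraries, as CPM plus 0.1 on a log axis whose range differs between panels; columns are liver tissue (15), small tumours (25) and large tumours (25), marker shapes are the 3 runs and black lines are group medians. The medians step down from liver tissue to small to large tumours in every panel, and for Cyp7a1 from 221 to 37.4 to 3.61 CPM, while the points of the tumour groups spread widely and overlap each other.

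Within single runs, all 10 genes were lower in large tumours than in liver tissue in each of the 3 runs, where 21.9%, 30.6% and 16.1% of all tested genes were lower in runs 1, 2 and 3. For Cyp7a1 the log2 fold change was -3.93 in the first, -7.34 in the second and -3.22 in the third run. In small tumours 8, 9 and 6 of the 10 genes passed within runs 1, 2 and 3, beside 19.9%, 25.4% and 14.5% of all tested genes lower, and the direction was lower for every gene in every run. Run 3 has 3 liver tissue libraries. The genes that did not pass were Cyp7a1 and Cyp8b1 in the first run, Slco1a1 in the second, and Cyp7a1, Slc10a1, Abcb11 and Slco1a1 in the third. A test of the group-by-run interaction by edgeR called none of the 10 genes and 0 of 14538 genes (0.0%), with 3 of the 10 genes (Cyp7a1, Cyp27a1 and Slco1b2) and 1675 genes at an unadjusted p under 0.05, and the lowest adjusted p among the 10 was 0.270 for Cyp27a1.

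RNA of secreted liver proteins took a larger share of tumour libraries, which bears on scaling. A list of 14 hepatocyte secreted protein genes summed to a median of 112841 counts per 1000000 gene counts in liver tissue, 238263 in small and 226848 in large tumours, led by Alb and the apolipoprotein gene Apoa1. Its members did not move as one: 9 of 14 rose and 4 fell in large tumours, and 9 rose and 2 fell in small tumours. Apoa2, another apolipoprotein gene, fell by 1.08 ± 0.12 in large tumours and Apoh by 0.37 ± 0.10. Scaling the libraries to this list moved the median of all genes from 0.05 to -0.30 in large and from 0.03 to -0.49 in small tumours on the log2 scale, and changed the genes higher and lower in large tumours from 5590 and 4662 to 2322 and 7836, and those in small tumours from 5050 and 4509 to 1511 and 9838. On that scale the 10 bile acid genes were all lower in both tumour sizes, with medians of -3.70 and -2.83. Abcb11, the gene that changed least, was then at -1.70 ± 0.17 in large and -1.52 ± 0.17 in small tumours.

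Large tumours were compared with small ones to ask whether the genes differ with tumour size. All 10 fitted log2 fold changes were below 0, with a median of -0.87 against 0.01 over all genes, but only Slco1a1 fell (-2.13 ± 0.48, edgeR adjusted p = 0.0119), beside 1.55% of all genes lower (2.48% in either direction). Cyp7a1 differed by -1.85 ± 0.58 (adjusted p = 0.0671), Cyp8b1 by -1.44 ± 0.45 (adjusted p = 0.0612) and Cyp7b1 by -1.11 ± 0.37 (adjusted p = 0.0832). Slc10a1 (-0.79 ± 0.28), Slco1b2 (-0.95 ± 0.40) and Cyp27a1 (-0.52 ± 0.26) did not pass either, nor did Baat (-0.38 ± 0.13), Abcb11 (-0.33 ± 0.15) and Slc27a5 (-0.31 ± 0.15), the genes with the smallest differences. The call of Slco1a1 did not hold when only small and large tumours were fitted (adjusted p = 0.0634), without the first or the second run (adjusted p = 0.113 and 0.117) or within any single run. Cyp7a1 passed with DESeq2 (adjusted p = 0.0206) and without the third run (adjusted p = 0.0294), so the count of genes lower in large than in small tumours ran from 0 to 4 over the alternatives. In the third run alone the median log2 fold change of the 10 genes was -0.19, against -1.25 and -1.27 in the first and second, and Cyp27a1 and Slco1b2 were at 0.34 and 0.09.

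**Figure D2:**
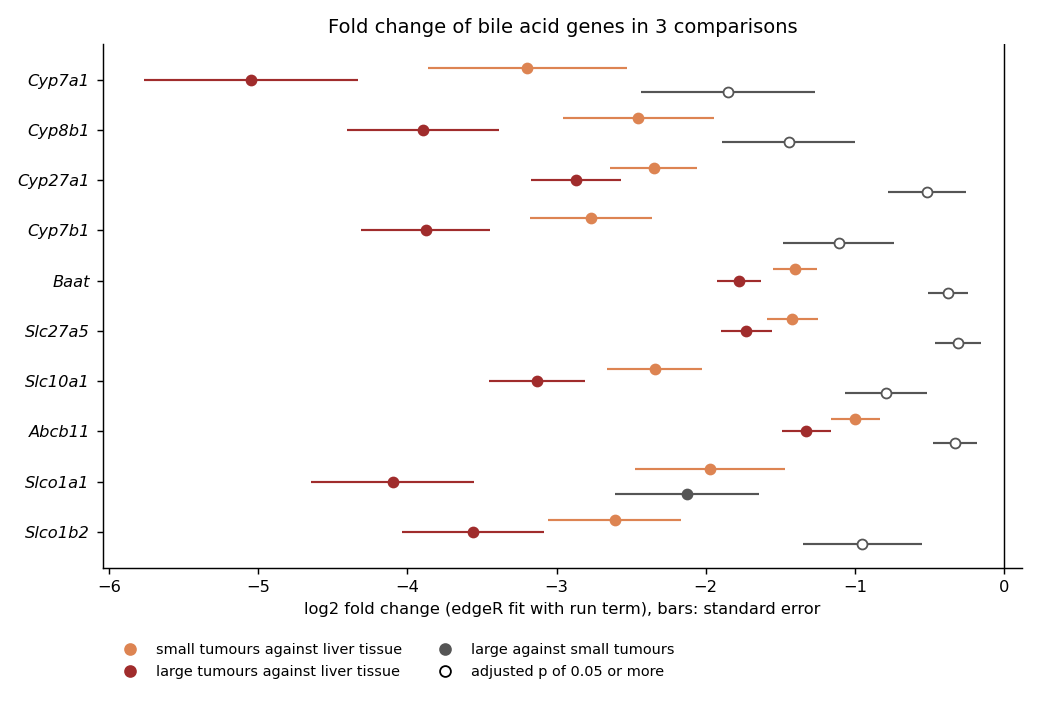
Log2 fold changes of the 10 genes from the edgeR fit with run as a term, with bars of 1 standard error; colours are the 3 comparisons and open points have an adjusted p of 0.05 or more. All points lie left of 0, Cyp7a1 lies farthest left at -5.05 in large tumours, and Slco1a1 at -2.13 is the filled point of large against small tumours.

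Counted per library, most tumours were low for the whole group at once. In 39 of 50 tumours (16 of 25 small, 23 of 25 large) all 10 genes lay below every liver tissue library. None of the 10 exceeded the highest liver tissue library in any tumour. How many of all tested genes lay below or never above liver tissue in each tumour was not counted. These counts are therefore not read as particular to the bile acid genes. The summed level of the 10 genes was 3743 to 6880.0 CPM in liver tissue (median 5048), 486 to 4090.2 CPM in small tumours (median 1379) and 374 to 4428 CPM in large tumours (median 870.0). A few tumours kept a liver-like pattern. Large tumour 20, with a sum of 4428 CPM, kept 7 of the 10 genes within the liver tissue range but not Cyp7b1, Baat and Slco1a1. Small tumour 2 kept all but Cyp27a1, Cyp7b1 and Slco1b2, and small tumour 22 kept 6 genes, among them Cyp7a1, Cyp8b1 and Slc10a1. Alpha-fetoprotein RNA (Afp), a marker of liver tumours, was 234.7 CPM in large tumour 20 and 6.85 CPM in small tumour 2, where liver tissue ran from 1.78 to 40.9 CPM. Large tumour 16, the other tumour with Afp in the liver tissue range (27.3 CPM), kept Slc10a1 alone. Of the 7 other tumours with a gene in the liver tissue range, small tumour 10 kept Cyp8b1, Abcb11 and Slco1a1, small tumour 17 kept Cyp7a1 and Slc27a5, and the rest kept 1 gene each, most often Slco1a1. Without the tumour of each size with the highest sum, all 10 genes were lower in both tumour sizes. In large against small tumours 3 instead of 1 then passed, with Cyp7a1 at -2.27 ± 0.53 and Cyp8b1 at -1.53 ± 0.42 beside Slco1a1. The tumours left out were picked by the levels of these same 10 genes. Leaving them out pulls the tumour levels down by construction, so these fits lend no separate support.

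**Figure D3:**
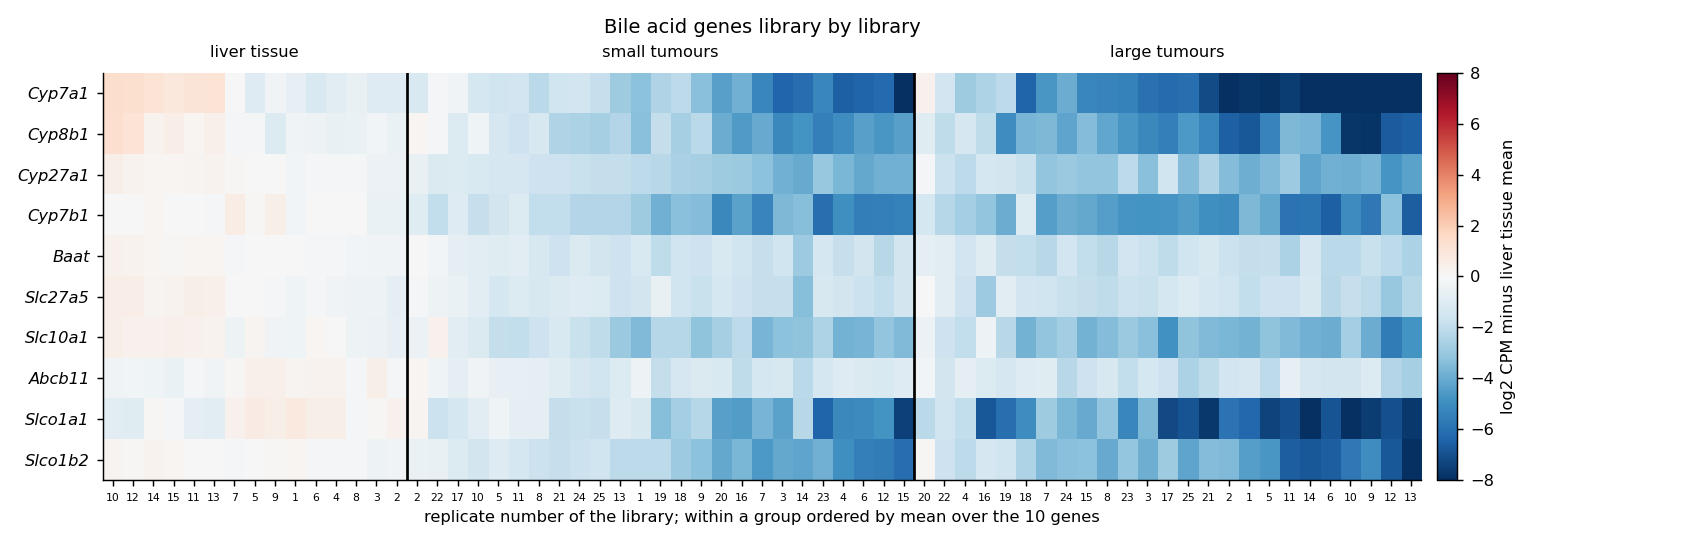
Log2 CPM of each gene in each library minus the mean of liver tissue; columns are libraries named by replicate number and ordered within a group by the mean over the 10 genes, and the colour scale ends at 8 in either direction. Most tumour columns are blue in every row, palest for Baat, Slc27a5 and Abcb11, and the columns of small tumours 2 and 22 and large tumour 20 stay near the liver tissue level in most rows.

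Levels per length show how the order of the genes differed between groups. In liver tissue the median CPM per kilobase of exon was highest for Slc27a5 (405), followed by Cyp27a1 (309.9) and Slc10a1 (309.8), Slco1b2 (213), Baat (151), Cyp8b1 (109), Abcb11 (97.1), Cyp7b1 (88.9), Cyp7a1 (52.8) and Slco1a1 (30.3). The library ranges of every pair of neighbours in that order overlapped. In large tumours Slc27a5 was again highest (133 CPM per kilobase), followed by Baat (42.9), Abcb11 (39.5), Cyp27a1 (34.9), Slc10a1 (25.5) and Slco1b2 (17.8). Cyp8b1 (4.70), Cyp7b1 (4.07), Cyp7a1 (0.865) and Slco1a1 (0.345) came last. The conjugation and export genes thus stood ahead of the uptake genes in large tumours by median CPM per kilobase. Their library ranges there (Slc27a5 51.1 to 421, Baat 26.8 to 95.5, Abcb11 17.2 to 91.6) overlapped with those of 2 uptake genes. These were Slc10a1 (5.79 to 208) and Slco1b2 (0.820 to 223), whereas Slco1a1 (0.0445 to 9.10) lay lower without overlap.

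Ratios of genes within a library, chosen after the values were seen, put figures on this difference. The log2 ratio of the uptake carrier Slc10a1 to the export pump Abcb11 was 0.16 ± 0.60 in liver tissue (SD, n = 15), -1.11 ± 0.96 in small tumours (n = 25) and -1.57 ± 1.03 in large tumours (n = 25). Averaged within runs, it was lower by 1.47 in small and 1.93 in large tumours (two-sided permutation test within runs, p = 1e-05 for both, the smallest that 100000 permutations can give, and adjusted p = 3e-05 over 9 tests). Small and large tumours differed in this ratio by -0.42 within runs (permutation p = 0.0774). The log2 ratio of Cyp7a1 to Cyp27a1, the first enzymes of the classic and the alternative route, was -1.32 ± 0.77 in liver tissue, -2.36 ± 1.41 in small and -4.58 ± 2.05 in large tumours. It was lower by 1.29 in small and by 3.56 in large tumours than in liver tissue within runs (permutation adjusted p = 0.000887 and 3e-05), and lower by 2.03 in large than in small tumours (permutation adjusted p = 0.00012). The log2 ratio of Slc10a1 to Baat was lower by 1.06 in small and 1.53 in large tumours than in liver tissue (permutation adjusted p = 3.6e-05 for both), and differed by -0.52 between tumour sizes (permutation adjusted p = 0.0367). These genes were seen to fall unequally before the ratios were formed, so the tests do not stand apart from the fold changes above.

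Tumours also differed more among themselves than liver tissue libraries did, for most tested genes as for these. The mean absolute deviation of log2 CPM, after centring within group and run, was 0.37 in liver tissue, 1.67 in small and 1.85 in large tumours for Cyp7a1, and 0.11, 1.34 and 1.06 for Slco1b2. It was larger in tumours for all 10 genes in both sizes, beside 84.65% of the 14538 tested genes in small and 88.02% in large tumours. The median difference was 0.84 for the 10 genes and 0.05 over all genes in small tumours, and 0.62 and 0.07 in large tumours. With p-values adjusted over all tested genes (two-sided permutation test, a choice made after seeing the data), 4 of the 10 genes passed in small tumours (Cyp27a1, Cyp7b1, Slco1a1 and Slco1b2), beside 1.37% of all genes, and 2 in large tumours (Cyp7b1 and Slco1b2), beside 0.791%. Adjusted over the 20 gene and size combinations alone, 18 passed, all but Slc27a5 in both sizes. With values centred on the group only, Abcb11 did not pass either (permutation adjusted p = 0.193 in small and 0.135 in large tumours). The deviation of Cyp7a1 in liver tissue was then 0.88. Centring on the median of few libraries makes deviations smaller, and run 3 holds 3 liver tissue libraries. Cyp7b1, with 0.18 in liver tissue, had 1.37 in small and 0.95 in large tumours (permutation p adjusted over all genes 0.0249 and 0.0415). Liver tissue libraries may share mice, which was not given in the labels.

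Across the 50 tumours the genes varied together. With log2 CPM centred within size class and run, all 45 pairs correlated positively and passed a permutation test (Pearson's r from 0.31 to 0.89, median 0.64, adjusted p under 0.05 over 45 pairs). Over all 105669453 pairs of tested genes, centred in the same way, the median r was -0.003, 10.32% of pairs reached the lowest r of the 45 pairs and 0.48% reached their median. The highest value was between Cyp27a1 and Slco1b2 (r = 0.89, rho = 0.90, permutation p = 1e-05 for both, the smallest possible; r = 0.88 without the 2 farthest tumours). Within runs 1, 2 and 3 this pair had r = 0.97, 0.78 and 0.95. Cyp7a1 correlated at r = 0.88 with Slco1a1 (rho = 0.88, permutation p = 1e-05, and r = 0.87 without the 2 farthest tumours; 0.97, 0.92 and 0.77 within runs) and at r = 0.88 with Slco1b2 (rho = 0.85, permutation p = 1e-05). Cyp8b1 and Slc10a1, printed with their promoters above, correlated at r = 0.73 (rho = 0.73), and Slc10a1 and Slco1b2 at r = 0.71 (rho = 0.74).

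The conjugation enzymes stood further from the rest. The median r of a gene with the other 9 was 0.74 for Cyp7a1, 0.73 for Cyp27a1, 0.72 for Cyp8b1 and for Slco1b2, 0.71 for Slco1a1, 0.67 for Cyp7b1 and for Slc10a1, 0.62 for Abcb11, 0.55 for Baat and 0.44 for Slc27a5. The lowest pair was Cyp7b1 with Slc27a5 (r = 0.31, rho = 0.39, permutation p = 0.0259 and 0.00535), at r = 0.67, -0.02 and 0.37 within runs 1, 2 and 3. Baat with Slco1a1 had r = 0.35 overall and -0.03 in the second run, and Slc27a5 with Slco1a1 had r = 0.33 overall and 0.01 in the second run. For small tumours alone 44 pairs passed and for large tumours alone 26 pairs did. Tumours share library preparation and may share mice, so the permutation p-values may be too small.

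**Figure D4:**
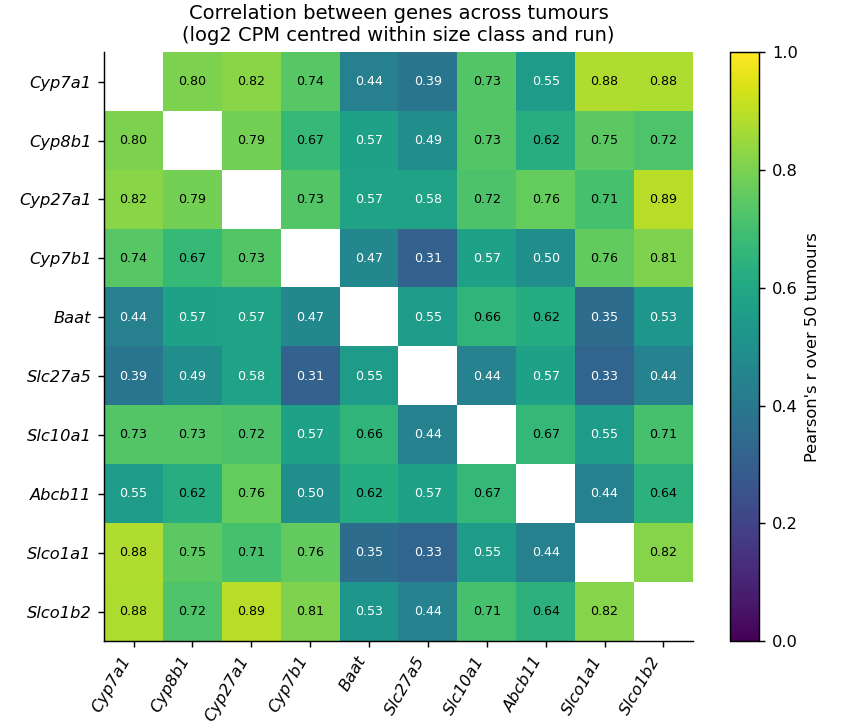
Pearson's r between each pair of the 10 genes across 50 tumours, from log2 CPM centred within size class and run; the diagonal is blank. The brightest cells join Cyp7a1, Cyp27a1, Slco1a1 and Slco1b2 (up to 0.89), and the rows of Baat and Slc27a5 are darkest (down to 0.31).

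Outside the 10 genes, those with the most similar pattern across the 50 tumours were named by the highest r with each gene, as a description without a test. For Cyp7a1 these were Cyp4a14 (r = 0.94, rho = 0.94) and Cyp2e1 (r = 0.92, rho = 0.90), both cytochrome P450 genes. Cyp2e1 was also nearest to Slco1b2 (r = 0.93, rho = 0.93), followed by the hedgehog ligand gene Ihh (r = 0.91, rho = 0.91). Slco1a1 was nearest to 2 male-biased genes, the fatty acid elongase gene Elovl3 (r = 0.95, rho = 0.94) and the urinary protein gene Mup14 (r = 0.95, rho = 0.96), whose counts are uncertain because of near-identical family members. Csad, which makes taurine precursors, led for both Cyp8b1 (r = 0.87, rho = 0.85) and Cyp27a1 (r = 0.91, rho = 0.90), followed by Fam25c (r = 0.86) and the sulfite oxidase gene Suox (r = 0.88). Cyp7b1 was nearest to Adh4 (r = 0.85, rho = 0.86) and Car3 (r = 0.84, rho = 0.84). The nearest genes to Slc10a1 were Hacl1 (r = 0.88, rho = 0.87) and Retsat (r = 0.85), and those to Abcb11 were Sec14l2 (r = 0.90, rho = 0.89) and Hsd3b7 (r = 0.86, rho = 0.85), itself a bile acid synthesis enzyme. Baat lay nearest to Fam214a (r = 0.85, rho = 0.80) and Gcdh (r = 0.84), and Slc27a5 to Tmem86b (r = 0.85, rho = 0.87) and Aldh7a1 (r = 0.83).

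Liver tissue libraries fell into separate sets. Libraries 10 to 15 had 479 to 724 CPM of Cyp7a1, and libraries 1 to 9 had 115 to 268 CPM, with none between. The same 6 libraries were higher without overlap for Cyp8b1 (265 to 598 against 111 to 212 CPM), Slc27a5 (1210 to 1493 against 636 to 992 CPM) and Slc10a1 (733 to 843 against 394 to 715 CPM), and also for Cyp27a1 and Baat. Abcb11 went the other way without overlap, at 379.9 to 492 CPM in libraries 10 to 15 and 499.4 to 752 CPM in libraries 1 to 9. Slco1a1 was mostly lower in libraries 10 to 15, at 76.9 to 155 against 138 to 257 CPM, and Cyp7b1 overlapped. Cyp2e1 was higher (10058 to 13001 against 4933 to 8804 CPM), Elovl3 lower (10.7 to 22.9 against 36.9 to 89.7 CPM) and the clock output gene Dbp higher (122 to 182 against 73.1 to 115 CPM) in the same 6 libraries. These sets were cut at the widest gap in Cyp7a1 itself, so its separation was given by the cut and no test was run on them. The share of all genes that separate the same sets was not counted. The separation is therefore not read as particular to the bile acid genes. Labels that would tell the sets apart, such as mouse or time of collection, are not given. The first run holds liver tissue libraries 1 to 6, the second 7 to 12 and the third 13 to 15, so the sets follow the run in part. Cyp7a1 and Slco1a1 differed in opposite directions between these sets of liver tissue but varied together across tumours. Across the 15 liver tissue libraries, centred within run, pairs of both signs passed. Cyp7a1 with Slco1a1 had r = -0.70 and Cyp8b1 with Slco1a1 r = -0.73 (permutation adjusted p = 0.0107 and 0.00525). Slc27a5 with Slc10a1 had r = 0.92 (permutation adjusted p = 0.000112). The second run holds libraries of both sets, so this centring does not take the sets out.

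**Figure D5:**
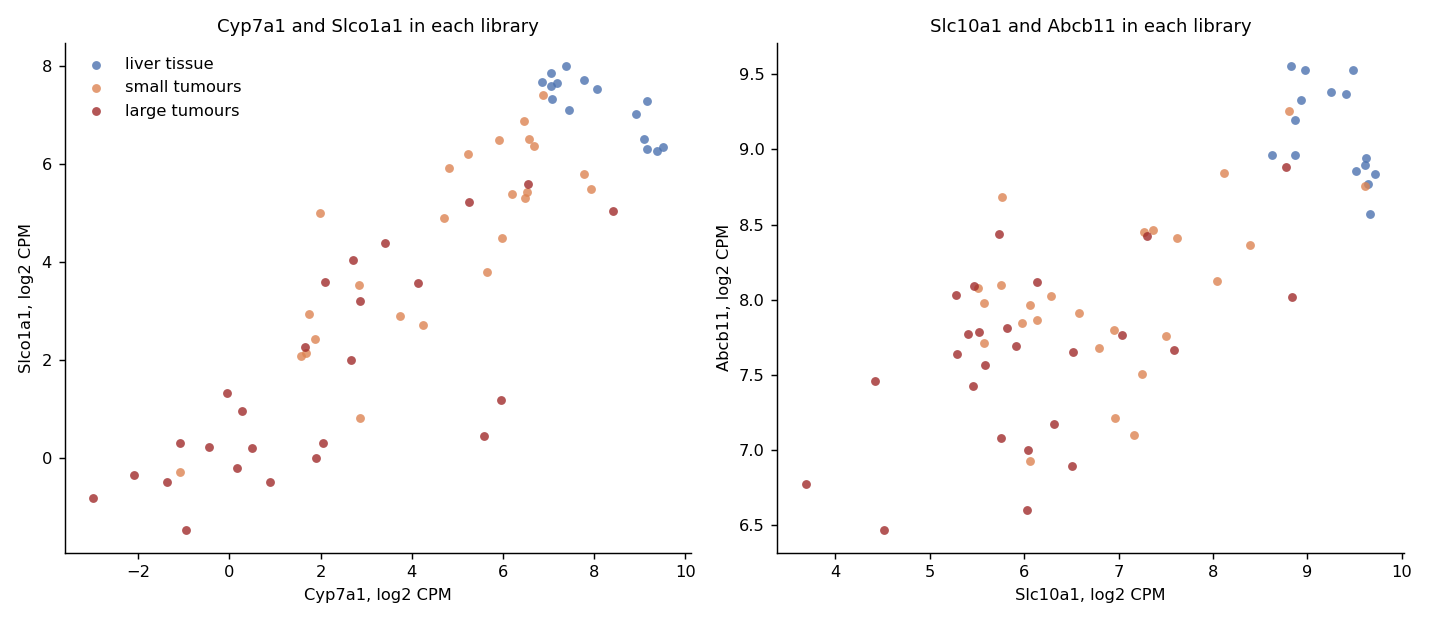
Log2 CPM of Cyp7a1 against Slco1a1 (left) and of Slc10a1 against Abcb11 (right) in each library, coloured by liver tissue (15), small tumours (25) and large tumours (25). On the left the tumours lie along a rising line (r = 0.88 after centring) while the 6 liver tissue libraries highest for Cyp7a1 are among the lowest of that tissue for Slco1a1; on the right Slc10a1 spans a wider range than Abcb11.

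Other enzymes of bile acid synthesis were mostly lower too. Of 15 such genes tested, 2 rose and 12 fell in large tumours against liver tissue, where 38.5% of all genes were higher and 32.1% lower (median log2 fold change -1.05), and 2 rose and 12 fell in small tumours (34.7% higher and 31.0% lower, median -0.88). None passed between large and small tumours. Akr1c6, an aldo-keto reductase, fell from a median of 1030.3 to 158 CPM (log2 fold change -2.34 ± 0.31 in large tumours), and Akr1d1, which reduces the steroid ring, from 147 to 42.1 CPM (-2.21 ± 0.25). Cyp46a1, an oxysterol-forming enzyme better known from brain, fell from a median of 4.52 to 0.274 CPM (-3.08 ± 0.40). Ch25h, the cholesterol 25-hydroxylase, and Cyp39a1, an oxysterol 7-hydroxylase, were the 2 that rose. Cyp39a1 went from a median of 22.3 to 81.7 CPM (1.79 ± 0.16), with all 25 large tumours above all liver tissue libraries. The share of all genes with every large tumour above liver tissue was not counted. Ch25h went from 0.466 to 0.742 CPM (1.43 ± 0.37), close to the limit of detection.

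Transporters outside the 10 genes held both higher and lower members, in counts near those of all genes. Of 11 tested, 4 rose and 5 fell in large tumours (38.5% of all genes higher and 32.1% lower, median log2 fold change -0.20), and 4 rose and 6 fell in small tumours (34.7% and 31.0%, median -0.42). With libraries scaled to the secreted protein genes, 1 rose and 8 fell in large tumours, and 0 rose and 8 fell in small tumours. On that scale 2322 of all 14538 tested genes were higher and 7836 lower in large tumours. In small tumours 1511 were higher and 9838 lower. Slco2b1, an organic anion transporter, fell from a median of 229 to 25.6 CPM (-3.04 ± 0.29). Every large tumour was below liver tissue for Slco2b1, which held for 2.21% of all genes. Slco1a4, another member of the Slco1a family, fell by 2.71 ± 0.43 on the log2 scale. Abcc4, which exports bile acids back to the blood, rose from a median of 13.7 to 53.8 CPM (1.97 ± 0.36). Abcc2, the canalicular pump for conjugated organic anions, rose by 0.57 ± 0.14, Atp8b1, a canalicular lipid flippase, by 0.19 ± 0.07, and the export subunit gene Slc51b by 0.73 ± 0.34 from a median of 0.306 CPM. Its partner Slc51a was at 0 counts in every tissue library. Abcb4, the phospholipid exporter of the canaliculus, fell by 0.75 ± 0.11. On the secreted protein scale Abcc4 still rose in large tumours (1.63 ± 0.36) but did not pass in small ones (0.66 ± 0.34, edgeR adjusted p = 0.0731), while Abcc2 (0.20 ± 0.13) and Slc51b (0.39 ± 0.35) did not pass and Atp8b1 turned to -0.18 ± 0.08.

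Regulators had smaller fold changes by their median than the 10 genes. Of 18 tested, 1 rose and 14 fell in large tumours (38.5% of all genes higher and 32.1% lower, median log2 fold change -0.49) and 1 rose and 13 fell in small tumours (34.7% and 31.0%, median -0.39). On the secreted protein scale 16 of 18 fell in large and 18 of 18 in small tumours, and none rose. Of all 14538 tested genes 7836 were lower in large and 9838 in small tumours on that scale. Fgf15 was at 0 counts in every tissue library. The receptor genes Nr1i3 (CAR), Nr1h4 (FXR) and Nr1i2 (PXR) fell most, by 3.33 ± 0.37, 1.43 ± 0.12 and 1.04 ± 0.09 on the log2 scale in large tumours. Nr1h4 had a median of 138 CPM in liver tissue, 65.2 in small and 52.9 in large tumours, with 23 and 24 of 25 tumours below liver tissue. Nr0b2 (SHP), the repressor induced by FXR, fell by 0.57 ± 0.16 in large and 0.46 ± 0.16 in small tumours, from a median of 33.1 to 21.7 and 22.3 CPM. Klb, the co-receptor for Fgf15, fell by 0.59 ± 0.11 in large tumours, and its receptor partner Fgfr4 was at -0.14 ± 0.10 and did not pass. Hnf4a, the hepatocyte factor whose core lies in the Cyp8b1 window printed above, had a median of 700.3 CPM in liver tissue, 698 in small and 683 in large tumours (-0.08 ± 0.06, adjusted p = 0.178). Nr5a2 (LRH-1), whose core lies beside it, rose by 0.17 ± 0.06. On that scale Nr5a2 turned to -0.18 ± 0.09, and Hnf4a (-0.44 ± 0.06) and Fgfr4 (-0.45 ± 0.12) fell, so the direction of Nr5a2 and the calls of Hnf4a and Fgfr4 depend on the scale.

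Sex-biased and clock genes were read beside the 10 genes, since Cyp7b1 and Slco1a1 are male-biased and Cyp7a1 follows the time of day. Of 12 male-biased hepatocyte genes 8 fell and 1 rose in large tumours (32.1% of all genes lower and 38.5% higher, median log2 fold change -1.80), led by Hsd3b5 (-4.53 ± 0.50), Cyp4a12a (-4.51 ± 0.52) and Elovl3 (-4.21 ± 0.55). Between large and small tumours 5 of the 12 fell, beside 1.55% of all genes, Elovl3 (-2.12 ± 0.52) and Hsd3b5 (-2.20 ± 0.46) by amounts near that of Slco1a1. Of 10 female-biased genes tested 6 fell and 2 rose in large tumours (the same shares of all genes, median -2.52). A1bg (-6.92 ± 0.66) and Sult3a1 (-5.33 ± 0.60) fell most. The 2 that rose, the cytochrome P450 genes Cyp2a4 (2.24 ± 0.29, uncertain because of a near-identical copy) and Cyp2b9 (1.10 ± 0.26), also rose on the secreted protein scale, and the summed level of the female-biased list went up, from a median of 869.9 counts per 1000000 gene counts in liver tissue to 2776 in small and 2074 in large tumours. Of 16 clock genes 8 fell and 3 rose in large tumours (median -0.35, again beside 32.1% and 38.5% of all genes), with Ciart at -1.49 ± 0.31, Hlf at -1.29 ± 0.13 and Npas2 at 1.71 ± 0.37. On the secreted protein scale 13 of the 16 fell and 1 rose in large tumours, beside 7836 lower and 2322 higher of all 14538 tested genes. Dbp was at -0.22 ± 0.18 in large and -0.06 ± 0.18 in small tumours and did not pass, whereas on the secreted protein scale it fell by 0.56 ± 0.18 and 0.58 ± 0.18.

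Markers of other cells moved with the groups. All 9 Kupffer cell markers fell in both tumour sizes, beside 32.1% of all genes in large and 31.0% in small tumours, with a summed median of 987 counts per 1000000 gene counts in liver tissue, 485 in small and 308 in large tumours (ranges 742 to 1490.1, 202 to 843 and 111 to 707), and 7 of 9 fell between large and small tumours (1.55% of all genes). On the secreted protein scale these counts were the same. All marker counts on that scale stand beside 7836 lower and 2322 higher of all 14538 tested genes in large tumours. In small tumours 9838 were lower and 1511 higher, so general shifts of scale enter these counts. Cholangiocyte markers summed to 92.7 to 707 in liver tissue, 115 to 2302 in small and 61.7 to 7434 in large tumours, with 2 of 9 rising in large tumours, Spp1 and Sox9. T cell markers rose in 7 of 8 cases in large tumours (38.5% of all genes) and in 0 of 8 in small tumours, but in 1 of 8 and 0 of 8 on the secreted protein scale. They summed to 2.52 to 27.1 in liver tissue and 2.89 to 55.3 in large tumours. Of 9 stellate cell and fibroblast markers 5 rose and 2 fell in both sizes. Of 8 endothelial markers 2 rose and 3 fell in large and 3 rose in small tumours, where 34.7% of all genes were higher. On the secreted protein scale 4 of the 9 stellate cell and fibroblast markers rose and 3 fell in both sizes. Of the 8 endothelial markers 0 rose and 4 fell in both sizes on that scale, so their direction depends on the scale. Of 5 B cell markers tested 4 fell and 1 rose in large and 3 fell in small tumours. Of 4 neutrophil markers tested (of 8) 1 fell in large and 3 fell in small tumours. On the secreted protein scale 4 B cell markers fell and 0 rose in both sizes, and 3 neutrophil markers fell in large and 4 in small tumours. Of 10 hepatocyte markers 7 fell and 2 rose in large tumours, with Hpd (-3.33 ± 0.38) falling and Apoa1 (1.40 ± 0.12) rising, and no marker of these lists was at 0 in all libraries of a group. The part of these cells in the results on the 10 genes was not tested.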

How the data were processed

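Per the submitters' processing notes, the authors used FastQC 0.11.8, Trim Galore 0.6.4, HISAT2 2.1.0 and HTSeq 0.11.2 with GRCm38. Strand setting and annotation release are not given in the sources used here. The deposited values are raw read counts per gene; 5 HTSeq summary entries (median 55.5% of tissue entries, 47.8% to 64.8%) were left out. Per the labels, tissue libraries came from a stranded mRNA kit. Genes were matched by Ensembl identifier to symbols (37607 matched) and to GENCODE M21.

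Counts of the 65 tissue libraries were tested with edgeR 4.0.16 in R 4.3.3 (filterByExpr with minimum count 10 and minimum total 15, TMM, robust quasi-likelihood, group and run as terms, Benjamini-Hochberg at 0.05 over all genes). Log2 CPM used a prior count of 2. Permutation tests used 100000 resamples. Alternatives used DESeq2 1.42.0, other scalings, filters, terms and runs. The fits were tested on simulated data. No 2 libraries of a group were copies (lowest chi-square per degree of freedom 2.91 over 705 pairs). The 10 genes and all lists were chosen with earlier results of these data known. Named from each list were up to 3 called genes with the largest change in large tumours, plus Nr1h4, Nr0b2, Nr5a2, Hnf4a, Fgfr4, Klb and Dbp; Ch25h, Cyp39a1, Abcc2, Atp8b1, Slc51b, Abcb4, Apoa2, Apoh, Cyp2a4 and Cyp2b9 were added after their values were seen. Nearest genes were 2 per gene, by Pearson's r. Sorted cells were not tested against tissue. Where a library held no count of a gene, counting error alone leaves room for 3 counts. Some genes that this rule takes are not reported here.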

Additional observations from a re-analysis of the deposited data

Results flagged for a closer look

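The 10 genes were also counted in the sorted-cell libraries, which no comparison above uses. Their summed level was a median of 4.13 counts per 1000000 gene counts in 36 libraries of liver T cells, where the highest of 37 blood T cell libraries had 3.39, and 25 of the 36 lay above it. In 29 libraries of liver neutrophils the median was 5.78, where the highest of 32 blood neutrophil libraries had 4.97, and 18 of the 29 lay above it. The highest sums were 99.0 in a liver T cell library, with 56.7 for Slco1b2, and 52.2 in a liver neutrophil library. Cyp27a1 made up much of the signal, with medians of 2.499 in liver T cells, 0.722 in blood T cells, 3.44 in liver neutrophils and 0 in blood neutrophils. Cyp7a1 had a median of 0 in all 4 kinds of sorted cells and at most 4.54 in a library. Differences between liver and blood were not tested here.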

How the results depend on the processing

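Against liver tissue all 10 genes kept their direction and call in large tumours under all 16 alternatives, and in small tumours under all but the fits within single runs (8, 9 and 6 genes). All-gene calls within runs 1, 2 and 3 were 6409, 8850 and 5287 in large and 6217, 7311 and 4539 in small tumours. Large against small tumours was least stable. Genes of the 10 called lower were 1 at first, 4 with DESeq2 or without the third run, 3 with scaling to secreted protein genes or without the tumours with the highest sums, 2 without a run term or without libraries over 10 CPM of S100a8 (both S100a8 and the highest sums were chosen after seeing the data), and 0 with only these 2 groups, without the first or second run, or within any run. All-gene calls there were 360 at first, 570 with DESeq2, 38 with only these 2 groups, 3091 (2938 higher, 153 lower, against 135 and 225) with scaling to secreted protein genes, 200 without libraries over 10 CPM of S100a8, 15, 75 and 157 without runs 1, 2 and 3, and 0, 8 and 2 within them. Cyp27a1 and Slco1b2 turned to 0.34 and 0.093 within the third run. Fewer samples enter each fit within a run; the cause of the other shifts was not tested. Larger spread passed in 18 of 20 combinations adjusted over these and in 6 adjusted over all tested genes (chosen after seeing the data). Centred on the group only, and adjusted over the 20 combinations, Abcb11 and Slc27a5 did not pass in either size. Of 45 correlations 26 passed in large tumours alone. The interaction with run called 4 genes with no filter. With the replicate number as a block 2 of the 10 genes were lower in large than in small tumours, Cyp7a1 at -2.76 (edgeR adjusted p = 0.0340) and Slco1a1. Same-numbered libraries did not deviate together (mean r = -0.04 over 55 pairs, 2 of 65 libraries nearest to their own number), so an equal number does not pair samples. Whether libraries with neighbouring numbers share a mouse across groups was not tested. Levels near 0.1 CPM rest on few counts.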
